A study of Homo sapiens with 12 samples.

Results

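The 10 genes TRIM29, SCEL, GRHL1, GRHL2, GRHL3, TINCR, IVL, EVPL, PPL and KLF4 belong to the programme of squamous differentiation, and their counts were followed over the 4 conditions of an RNA sequencing experiment in A549 cells, a human lung adenocarcinoma line. All 10 had a row among the 26334 genes counted, and 8 of them were among the 15352 genes that passed the filter on low counts. The genes were chosen by their measured response in these libraries, namely a higher level upon RNF113A depletion or a Cisplatin response that was smaller in depleted cells. Their levels and fold changes are therefore given as a description. How many of them passed the rule used for all genes is stated once, beside the share of all genes and with nothing drawn from it. Their intronic reads and their splicing were tested. The other genes of squamous epithelium were listed with results of these data known, so that their values are a description as well. Lentivirus brought in either the shRNA targeting RNF113A (shRNF113A) or the control one (shControl), followed by 4 days of selection with 1 µg/ml puromycin, so that every library came from infected and selected cells. They were left untreated or received 25 µg/ml Cisplatin, a DNA crosslinking drug, for 20 h in full medium. Each condition had 3 replicates, 12 libraries in all, and the depletion was a knockdown of a spliceosome component rather than its loss.

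Stratified squamous epithelia such as the epidermis mature from basal cells, which divide, to cornified cells, which are dead and sealed by a crosslinked protein shell called the cornified envelope. Grainyhead-like transcription factors (GRHL1, GRHL2 and GRHL3) and KLF4 drive genes of this shell and of the junctions between cells, and the RNA TINCR binds differentiation transcripts in keratinocytes. Involucrin (IVL), sciellin (SCEL), envoplakin (EVPL) and periplakin (PPL) are precursors of the envelope, and TRIM29 is a tripartite motif protein abundant in the basal cells of squamous epithelia and in squamous carcinomas. Glandular lung tumour cells such as A549 are not of this lineage.

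The libraries held between 33859097 and 56071514 read pairs, of which 26220526 to 45721152 were assigned to a gene on its own strand. Levels are given in CPM, the count of a gene relative to the total of its library scaled by edgeR's TMM factors. The target RNF113A had 19.9 ± 0.397 CPM (SD, n = 3) in untreated control cells and 15.98 ± 0.772 in untreated depleted cells, a difference of −0.31 on the log2 scale (standard error 0.09, adjusted p = 0.0247 by the quasi-likelihood test of edgeR). With Cisplatin its depletion log2 fold change was −0.14 (standard error 0.09, adjusted p = 0.233), so that a lower level of RNF113A mRNA was not shown in the treated cells. The call in untreated cells was lost in 4 of the 12 fits that left out a library (untreated control replicates 1 and 3, untreated depleted replicates 1 and 2), with an adjusted p of 0.0940 at most. Untreated control replicate 2 stood apart most, with a mean correlation of 0.980 to the other 2 libraries of its condition against up to 0.995 elsewhere. Values it moved by over 1.5 times are also given without it. Of the 4 markers of lung epithelium SFTPB was at 0 in 11 of the 12 libraries, SFTPC reached 0.106 and NKX2-1 0.587 CPM at most, and NAPSA was present in every library at 1.48 to 4.49 CPM. Their summed level ranged from 1.83 to 2.62 CPM in untreated control cells, from 2.63 to 3.06 with Cisplatin, from 2.78 to 3.49 in untreated depleted cells and from 4.19 to 5.07 in depleted cells with Cisplatin. The keratins of simple epithelium KRT8 and KRT18 ranged from 1402 to 7450 CPM. In untreated cells the mean of KRT8 was 5505 CPM in control and 7020 in depleted cells, and with Cisplatin 2583 and 3184. KRT18 had 5077 and 6258 CPM in untreated cells, and 1776 and 2198 with Cisplatin. EPCAM, the third marker of simple epithelium, had 10.3 and 92.3 CPM in untreated control and depleted cells, and 5.16 and 46.4 with Cisplatin. Among the 6 markers of basal squamous cells KRT5, KRT14 and DSG3 stayed at or under 0.298 CPM in every library. The summed level of the 6 was carried mainly by SOX2, TP63 and KRT6A. It ranged from 6.49 to 13.0 CPM in untreated control cells and from 3.68 to 4.21 with Cisplatin. In depleted cells it ranged from 8.97 to 12.4 CPM untreated and from 11.4 to 23.3 with Cisplatin. The sum hides opposite changes. In untreated cells the mean of SOX2 was 7.57 CPM in control and 2.51 in depleted cells. TP63 had 1.14 and 4.04 CPM there, and KRT6A 0.267 and 3.98. With Cisplatin SOX2 had 3.13 CPM in control and 1.17 in depleted cells, TP63 0.151 and 0.342, and KRT6A 0.269 and 13.7. What part a mixture of cell states played in the values below was not tested, and in bulk RNA more cells that express a gene and more RNA per cell cannot be told apart.

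TRIM29 and SCEL were far higher in depleted than in control cells both with and without Cisplatin. TRIM29 (chromosome 11 of hg19, 119981994 to 120008821, minus strand, 9 exons) had 3.92, 4.69 and 3.77 CPM in the untreated control libraries and 35.9, 43.0 and 43.0 in the untreated depleted libraries. With Cisplatin it had 8.29, 11.2 and 9.47 CPM in control cells and 85.4, 87.2 and 98.6 in depleted cells. The 4 conditions did not overlap, and the order from untreated control cells to depleted cells with Cisplatin was complete. Depleted cells exceeded control cells 9.82-fold without Cisplatin and 9.37-fold with it, and treated cells exceeded untreated cells 2.33-fold with the control shRNA and 2.23-fold after depletion. The difference between these responses, the interaction, was −0.07 on the log2 scale (standard error 0.18), less than its standard error.

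SCEL (chromosome 13, 78109841 to 78219398, plus strand, 33 exons) encodes sciellin, which is built into the envelope. It had 10.1, 4.28 and 7.66 CPM in untreated control cells and 104, 105 and 121 in untreated depleted cells. In Cisplatin-treated cells it had 5.87, 5.34 and 6.21 CPM with the control shRNA and 76.1, 83.2 and 67.6 after depletion. The depleted libraries thus lay above every control library. The fold was 15.02 without Cisplatin and 13.0 with it. Unlike TRIM29, SCEL was lower with Cisplatin, by 0.33 (standard error 0.23) on the log2 scale in control cells, where libraries overlapped, and by 0.54 (standard error 0.20) in depleted cells, where they did not. SCEL shares 35 exonic bases with its antisense gene SCEL-AS1, and reads on the other strand came to 0.231% of its reads.

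**Figure D1:**
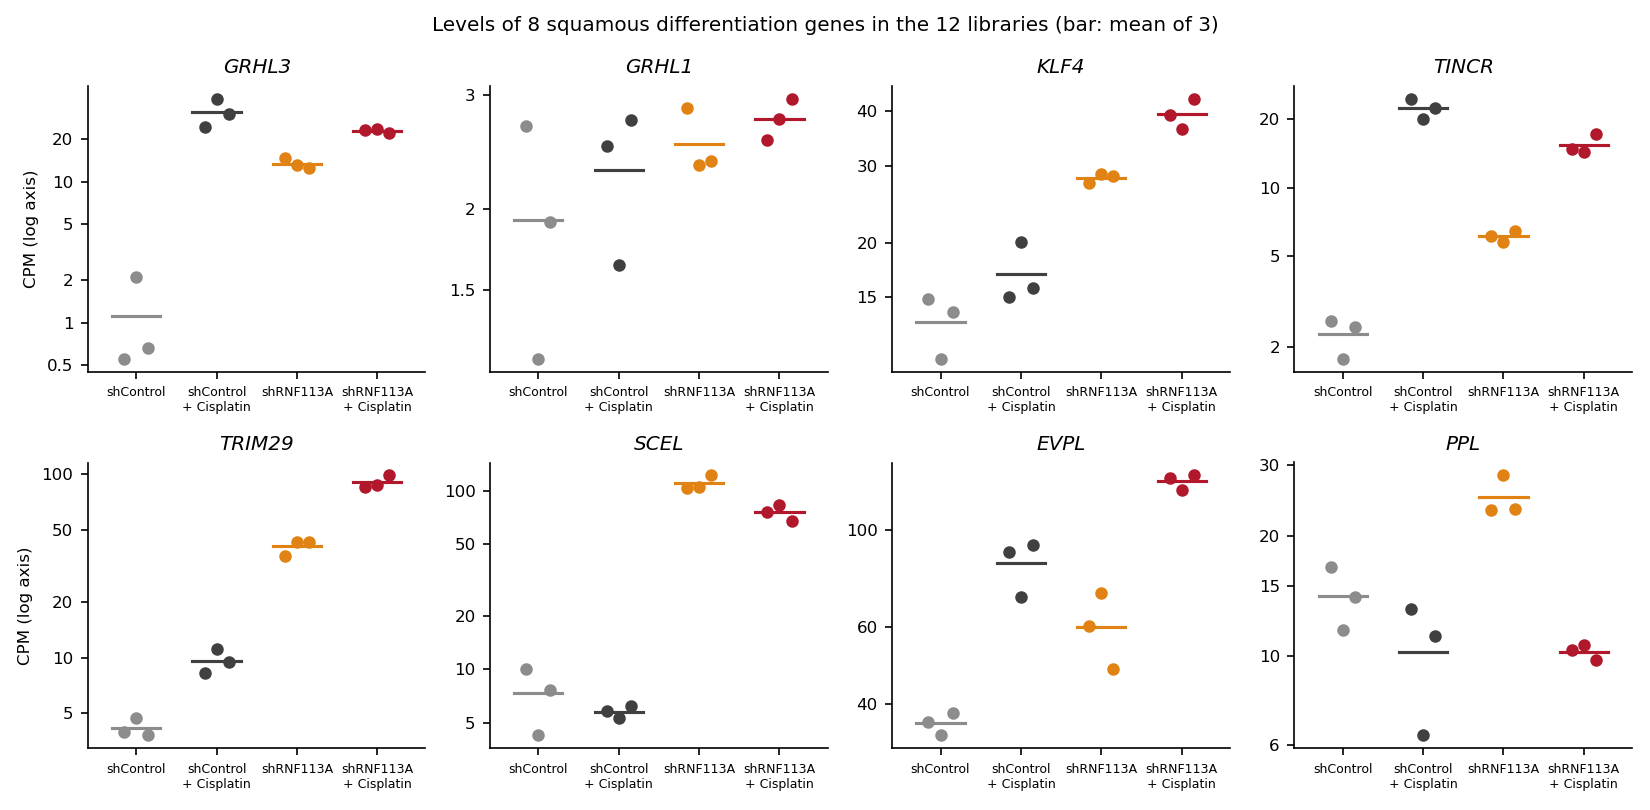
Level of the 8 genes that passed the filter, in CPM on a log axis, in each of the 12 libraries (points) with the mean of 3 libraries (bars), by shRNA and treatment. TRIM29, SCEL and KLF4 are higher in depleted than in control libraries at either treatment, whereas GRHL3 and TINCR are highest in Cisplatin-treated control cells.

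GRHL3 and TINCR showed the other pattern, a large Cisplatin response in control cells and a small one after depletion. GRHL3 (chromosome 1, 24645847 to 24681808, plus strand, 16 exons) encodes the grainyhead-like factor of late epidermal differentiation. It had 0.553, 2.11 and 0.663 CPM in untreated control cells, from 20, 83 and 25 reads, and 24.3, 38.5 and 30.01 CPM in control cells with Cisplatin. In depleted cells it had 14.6, 13.1 and 12.6 CPM without and 23.4, 23.5 and 22.2 CPM with Cisplatin. The depleted cells therefore began far above the untreated control cells and ended below every control library treated with Cisplatin.

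The Cisplatin fold of GRHL3 was 27.5 in control cells and 1.71 in depleted cells. Depleted cells exceeded control cells 11.9-fold when untreated, while with Cisplatin the difference was −0.43 (standard error 0.28) on the log2 scale. The interaction of −4.00 (standard error 0.45) was the 3rd lowest of the 15352 genes tested. The untreated level rested on the control replicate that stood apart. Without it the log2 fold change was 4.46 in place of 3.58 for depletion in untreated cells, 5.66 in place of 4.78 for Cisplatin in control cells, and −4.88 for the interaction, so that these values were larger without this library.

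TINCR (chromosome 19, 5558178 to 5567964, minus strand, 3 exons) is named a terminal differentiation-induced noncoding RNA, although the annotation now lists it as protein coding. Its level was 2.60, 1.78 and 2.47 CPM in untreated control cells and 24.4, 20.0 and 22.3 CPM after Cisplatin. Depleted cells had 6.14, 5.80 and 6.49 CPM without and 14.7, 14.3 and 17.2 CPM with the drug. The order of the 4 conditions was the same as for GRHL3, and none of them overlapped. TINCR was 9.74-fold higher with Cisplatin in control cells and 2.503-fold higher in depleted cells, and the interaction was −1.96 (standard error 0.20) on the log2 scale, the 77th lowest of all genes. Unlike GRHL3, TINCR thus kept a response of over 2-fold after depletion.

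KLF4 (chromosome 9, 110247133 to 110252050, minus strand, 5 exons), a zinc finger factor needed for the epidermal barrier, followed TRIM29 with smaller steps. It had 14.8, 10.9 and 13.9 CPM in untreated control cells and 27.3, 28.7 and 28.5 in untreated depleted cells. With Cisplatin the values were 15.02, 20.04 and 15.8 in control and 39.1, 36.5 and 42.6 in depleted cells. The depleted libraries exceeded the control libraries in each treatment, by 2.14-fold and 2.32-fold, and treated exceeded untreated cells 1.29-fold and 1.40-fold. KLF4 was the member closest above the 2-fold limit, which its untreated fold no longer reached without control replicate 2 (log2 fold change 0.97).

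The other grainyhead-like factors did not follow GRHL3. GRHL1 (chromosome 2, 10091822 to 10142405, plus strand) stayed between 1.17 and 2.96 CPM, and its libraries overlapped in all 4 comparisons, with log2 fold changes from 0.13 to 0.40 and standard errors of 0.27 or 0.28. GRHL2 (chromosome 8, 102504667 to 102681954, plus strand), the grainyhead-like factor usual in simple epithelia, had 6 reads over the 12 libraries and at most 3 in one. It did not pass the filter on low counts, and a change of GRHL2 was not detectable at this depth.

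The other envelope precursors differed in direction, EVPL being higher and PPL lower with Cisplatin and IVL close to 0. EVPL (chromosome 17, 74002926 to 74023387, minus strand, 22 exons) had 36.3, 33.9 and 38.1 CPM in untreated control cells and 89.0, 70.4 and 92.5 CPM with Cisplatin. In depleted cells it had 60.3, 71.9 and 48.0 CPM, and 132, 124 and 134 CPM with Cisplatin. Neither the shRNA groups nor the treatment groups overlapped, with Cisplatin folds of 2.33 and 2.16 and depletion folds of 1.67 and 1.55, and the interaction was −0.11 (standard error 0.19) on the log2 scale.

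PPL (chromosome 16, 4932508 to 4987149, minus strand, 22 exons) encodes the plakin that pairs with envoplakin at desmosomes. It had 16.7, 11.6 and 14.03 CPM in untreated control cells and 23.1, 28.2 and 23.3 in untreated depleted cells. Cisplatin brought the control libraries to 13.1, 6.35 and 11.2 CPM and the depleted libraries to 10.3, 10.7 and 9.77. The higher level after depletion was therefore seen in untreated cells (1.77-fold) and not in treated cells (log2 fold change 0.01, standard error 0.22). PPL was the only member lower with Cisplatin by over 2-fold, 2.43-fold in depleted cells against 1.38-fold in control cells, where the libraries overlapped.

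IVL (chromosome 1, 152881022 to 152884362, plus strand), the classical envelope precursor, was close to absent. It had 0 reads in the 6 untreated libraries, 1, 3 and 3 reads in Cisplatin-treated control libraries and 2, 2 and 0 in depleted ones, and no fold is given at these counts. Its mean of 0.0541 and 0.0421 CPM with Cisplatin compares with 84.0 and 129.9 CPM for EVPL.

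Taken per exonic kilobase, which allows levels of different genes to be set side by side, the leading member changed with the condition. In untreated control cells EVPL and KLF4 came first with 5.58 and 4.49 CPM per kb, followed by SCEL with 2.30 and PPL with 2.26, which differed by less than their spread, and GRHL3 was at 0.392. Cisplatin brought GRHL3 to 10.9 and TINCR to 6.08 CPM per kb in control cells, behind EVPL with 13.0. In untreated depleted cells SCEL led with 34.5 CPM per kb before TRIM29 with 13.6, while with Cisplatin TRIM29 led with 30.4 before SCEL with 23.7 and EVPL with 20.1. SCEL and TRIM29 did not overlap in CPM per kb in either condition of depleted cells.

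**Figure D2:**
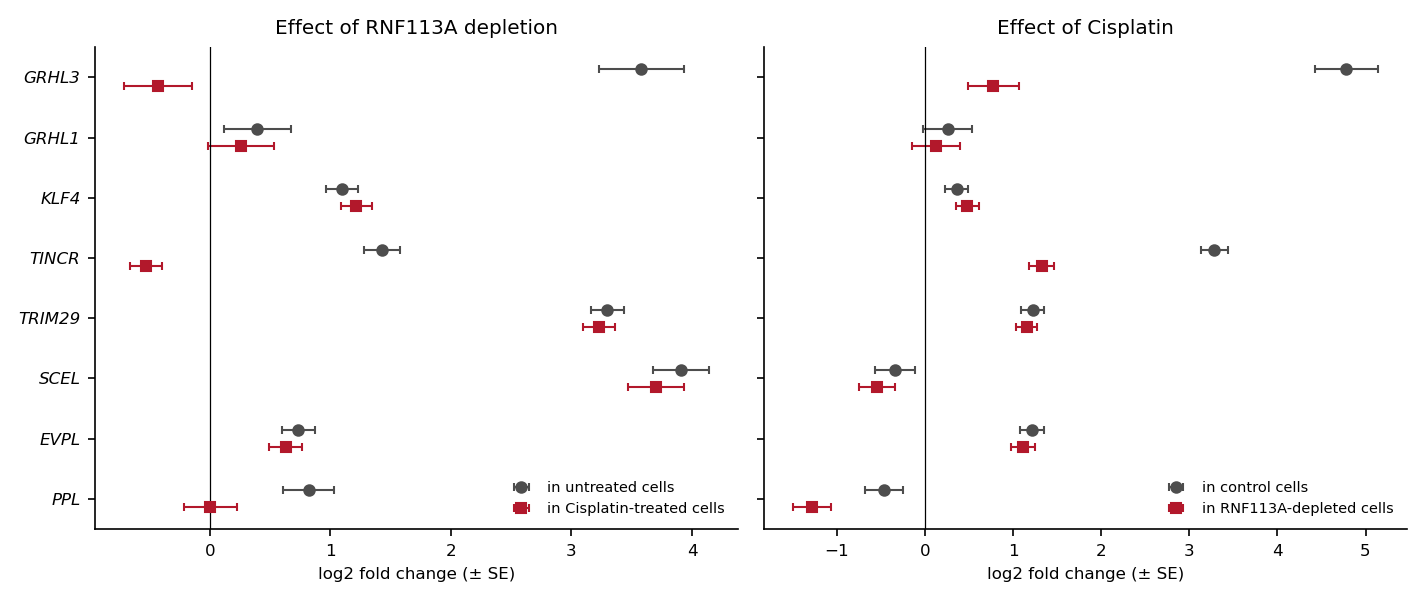
Log2 fold change (x axis, points) with its standard error (bars) for the effect of RNF113A depletion (left) and of Cisplatin (right) in the 8 genes that passed the filter. GRHL3 and TINCR differ most between the settings, with Cisplatin effects of 4.78 and 3.28 in control cells against 0.78 and 1.32 in depleted cells, whereas the paired values of TRIM29, KLF4 and EVPL lie close together.

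By the rule applied to all genes (a change of at least 2-fold with an adjusted p-value under 0.05), depletion in untreated cells called 5 of the 8 members higher and 0 lower, beside 3.7% of all genes higher and 4.96% lower. Depletion in Cisplatin-treated cells called 3 higher and 0 lower, beside 6.9% and 5.42% of all genes. Cisplatin called 4 higher and 0 lower in control cells (9.16% and 10.6% of all genes) and 3 higher and 1 lower in depleted cells (11.6% and 11.5%). The interaction called 2 lower, GRHL3 and TINCR, and 0 higher, beside 0.508% and 0.769% of all genes. The median log2 fold changes of the members were 1.26, 0.45, 0.79, 0.63 and −0.17 in these 5 comparisons, and those of all genes lay between −0.01 and 0.06. These counts follow from how the members were chosen, and the comparisons share their control libraries. The members nearest to the 2-fold limit in untreated cells were KLF4 at 1.10 inside it and PPL at 0.82 and EVPL at 0.74 outside it on the log2 scale.

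Across the 12 libraries the levels of TRIM29 and KLF4 had a Pearson correlation of 0.974 on the log2 scale, those of TRIM29 and SCEL 0.882, those of GRHL3 and TINCR 0.891 and those of GRHL3 and EVPL 0.806, whereas PPL and TINCR had −0.459. The 12 points are 4 conditions of 3 libraries each, so that these values describe the condition means above. Among the 9778 genes that averaged 10 CPM or more, the most like TRIM29 were TRMU, ZNF783, DHX34, FAM46A and KDSR, with correlations from 0.988 to 0.975. The most like GRHL3 were EPHB4, RAD52, EPB41L4A-AS1, LRIG2 and FAM84B, from 0.967 to 0.944. None of these 10 genes belongs to the squamous lists used here.

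The promoters of SCEL and IVL are shown because they share a letter pattern of a known epidermal activator, although SCEL was among the most changed members and IVL was close to absent. Of the 10 members, 5 had at least 1 promoter in the RefSeq table of GRCh38.p14, and the 250 bases before each start site were searched on both strands. TRIM29, TINCR, EVPL, PPL and GRHL2 were not among them. The AP-1 pattern TGANTCA, bound by dimers of the FOS and JUN family, was found in SCEL from 49 to 43 bases and in IVL from 123 to 117 bases before the start site, and the TATA box TATAAA in IVL from 30 to 25 bases before it. Matches are in capitals, and both sequences are written 5′ to 3′ on the plus strand.
SCEL, GRCh38.p14 chr13:77535456-77535705, plus strand: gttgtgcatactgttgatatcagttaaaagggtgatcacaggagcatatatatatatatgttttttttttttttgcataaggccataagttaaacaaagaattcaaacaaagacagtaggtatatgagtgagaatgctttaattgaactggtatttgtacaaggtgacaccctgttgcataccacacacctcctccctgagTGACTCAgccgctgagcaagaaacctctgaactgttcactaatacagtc
IVL, GRCh38.p14 chr1:152908296-152908545, plus strand: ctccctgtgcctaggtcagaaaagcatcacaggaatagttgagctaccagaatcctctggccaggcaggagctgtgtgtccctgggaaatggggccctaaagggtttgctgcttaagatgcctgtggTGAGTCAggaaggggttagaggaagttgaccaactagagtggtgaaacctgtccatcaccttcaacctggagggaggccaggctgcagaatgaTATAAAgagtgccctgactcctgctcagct
The AP-1 pattern occurred in 6.573% and the TATA pattern in 10.72% of the 35116 promoters of the table. The grainyhead pattern AACCGGTT, present in 0.1168% of all promoters, and its form with an open base, AACCNGTT (1.487%), had no match in the 6 windows of these members, nor had the KLF pattern CACACCC (6.627%). The GC box GGGCGG, present in 42.64% of all promoters, occurred 4 times in KLF4, 3 times in GRHL1 and 1 time in GRHL3. GC content ranged from 37.6% in SCEL to 81.6% in GRHL1.

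Intronic reads were examined next, since RNF113A belongs to the spliceosome and intronic reads took no part in the choice of the members. The exonic reads in the same ratio are of the kind by which the members were chosen. Of the 11488 genes with at least 1 intronic and 1 exonic read in every library, 7 were members, as TINCR was not in these protein-coding tables and GRHL2 and IVL had too few reads. KLF4 had the largest change. It had 3.02, 1.66 and 4.87 intronic reads per 100 exonic reads in untreated control cells and 11.7, 10.8 and 13.6 after depletion. With Cisplatin it had 1.94, 1.70 and 3.98 in control and 10.4, 9.78 and 10.1 in depleted cells. All depleted libraries lay above all control libraries.

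The depletion log2 change of the KLF4 ratio was 1.88 in untreated cells (standard error 0.30, adjusted p = 0.00146 by the quasi-likelihood test of edgeR) and 1.99 with Cisplatin (standard error 0.30, adjusted p = 1.1e-05). The median over all genes was 0.47 and 0.96, and the ratio was called higher in 28.2% and 81.5% and lower in 0.139% and 0.209% of all genes. When intronic and exonic reads were scaled separately, which sets these medians aside, the changes of KLF4 were 1.43 and 1.05 (adjusted p = 0.00129 and 0.00239).

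In untreated cells depletion raised the ratio in KLF4 and PPL, 2 of 7 members (28.6%, beside 28.2% of all genes). The change of PPL was 0.95 (adjusted p = 0.0392), and its call was lost in 8 of the 12 fits that left out a library and with separate scaling (0.49, adjusted p = 0.293). With Cisplatin it did so in 6 of 7 (85.7%, beside 81.5% of all genes), all but GRHL1, so that the shares of members were close to those of all genes. Among them GRHL3 went from 5.41, 2.79 and 6.79 to 10.98, 14.3 and 13.1 intronic reads per 100 exonic reads, a log2 change of 1.41 (standard error 0.27, adjusted p = 1.1e-04). SCEL changed by 1.00, PPL by 1.00, EVPL by 0.74 and TRIM29 by 0.56 (adjusted p from 0.00115 to 0.0162), beside the median of 0.96. The calls of PPL without depleted replicate 3 with Cisplatin and of TRIM29 without control replicate 1 with Cisplatin were lost (adjusted p = 0.0679 and 0.0802). Scaled separately, none of these 5 genes was called, and TRIM29 and EVPL were then at −0.39 and −0.21.

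Cisplatin changed the ratio in 0 of 7 members in control cells, where 17.5% of all genes were called higher and 1.2% lower. At an unadjusted p-value under 0.05 edgeR gave 1 member, PPL, with a log2 change of 1.00 (adjusted p = 0.0567). With the libraries paired by a replicate block PPL was called (0.97, adjusted p = 0.0403), 1 of 7. In depleted cells it raised the ratio in 4 of 7 and lowered it in 0 (57.1% of the members higher, beside 64.6% of all genes higher and 0.766% lower), namely PPL by 1.06, GRHL3 by 1.04, SCEL by 0.58 and TRIM29 by 0.50 (adjusted p from 0.00427 to 0.0174). The calls of SCEL, TRIM29 and PPL were lost in 2, 1 and 1 of the 12 fits that left out a library. KLF4 was not among them, with −0.36 and −0.25 (adjusted p = 0.546 and 0.371), and EVPL had −0.32 and −0.05. Scaled separately, none of these 4 genes was called, KLF4 was called lower upon Cisplatin in depleted cells (−1.04, adjusted p = 3.4e-05), and EVPL was called lower in control cells (−0.63, adjusted p = 0.00301) and in depleted cells (−0.83, adjusted p = 2.1e-05).

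**Figure D3:**
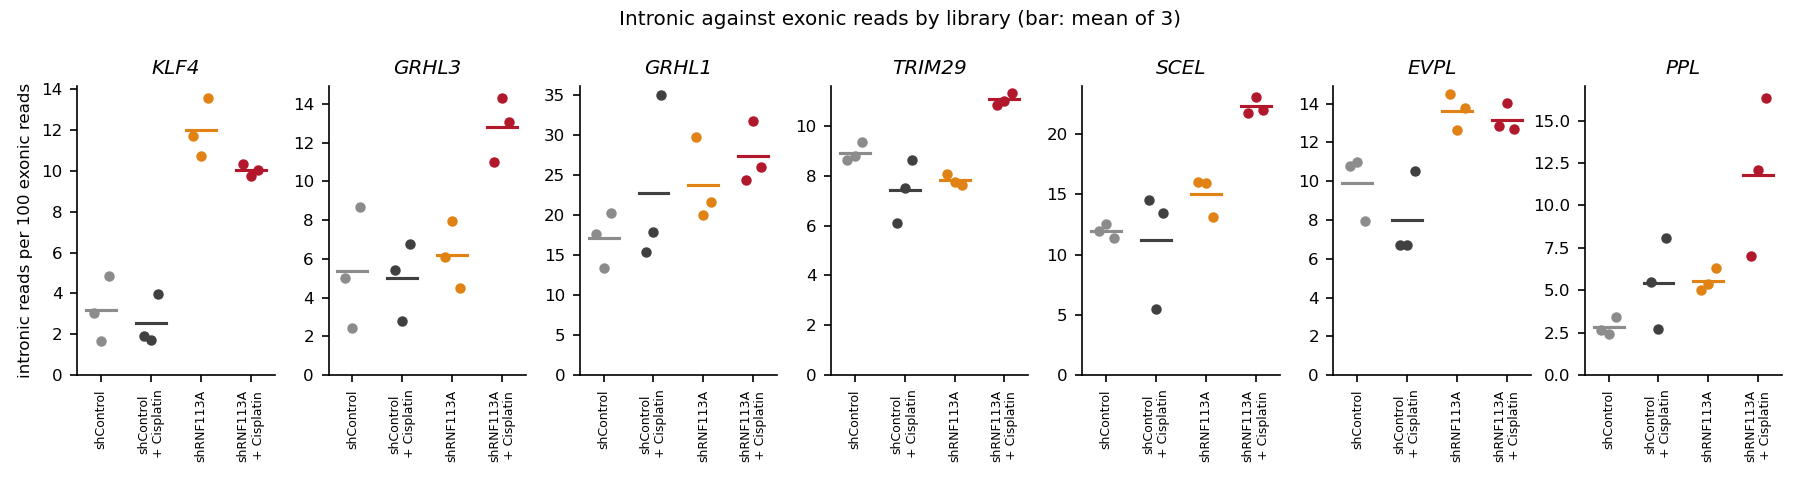
Intronic reads per 100 exonic reads (y axis) of the 7 genes tested in each library (points) with the mean of 3 (bars), by shRNA and treatment. KLF4 separates depleted from control libraries at either treatment, with at most 4.87 in control and at least 9.78 in depleted cells, while TRIM29, SCEL and GRHL3 are highest in depleted cells with Cisplatin.

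Which intron of KLF4 carried the change of the ratio was not tested. Among the splicing events KLF4 had 1, a retained intron. It is the intron between the third and the fourth exon (hg19 chr9:110249474-110249575, minus strand), with coding sequence on both sides. It is printed because it was the only member event that passed the adjusted threshold, 5′ to 3′ on the strand of the gene, with the dinucleotides of the splice sites in capitals.
KLF4 intron: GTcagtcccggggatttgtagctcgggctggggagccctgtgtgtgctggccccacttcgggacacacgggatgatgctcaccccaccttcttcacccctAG
Its 102 bases make 34 whole codons, and read on from the third exon they hold 0 in-frame stop codons. GC content was 63.7%.

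The retained form made up 2.63% ± 1.64 (SD, n = 3) of the reads, corrected for length, in untreated control cells and 12.4% ± 4.73 in untreated depleted cells. With Cisplatin it made up 2.65% ± 1.18 in control cells and 8.90% ± 0.739 in depleted cells. The reads were few: 4, 2 and 1 of the retained against 39, 27 and 48 of the spliced form in untreated control cells, and 21, 32 and 12 against 70, 62 and 54 in untreated depleted cells. The depleted libraries lay above the control libraries in both treatments. The odds of retention changed by 2.39 on the log2 scale in untreated cells (standard error 0.67, adjusted p = 0.00622 by the quasi-likelihood test of edgeR) and by 1.84 with Cisplatin (standard error 0.62, adjusted p = 0.0185). Of all retained introns, 14% and 21.9% had an adjusted p-value under 0.05 in these comparisons. For Cisplatin the log2 change of the odds was 0.03 in control cells and −0.54 in depleted cells (adjusted p = 0.992 and 0.495), beside 0.486% and 12.7% of all retained introns past that threshold. The call was lost in 2 of the 6 fits that left out a library for depletion in untreated cells (adjusted p = 0.106 at most) and in 4 of the 6 with Cisplatin (adjusted p = 0.0814 at most), with log2 changes no lower than 1.86 and 1.53.

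**Figure D4:**
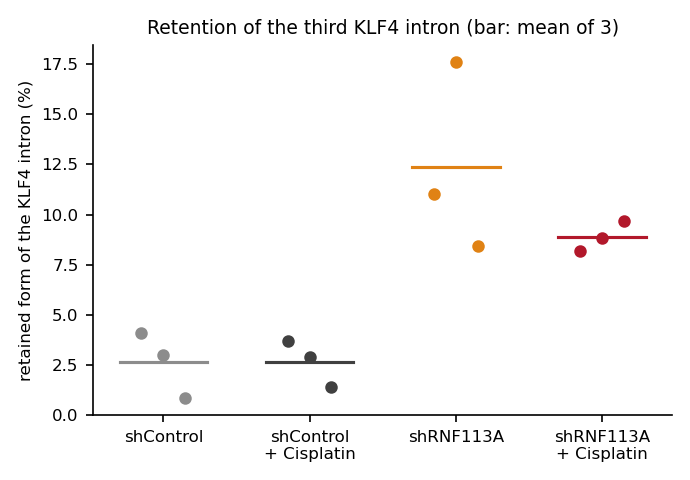
Share of the retained form of the KLF4 intron in percent (y axis) in each library (points, in the order of the splicing tables) with the mean of 3 (bars). The 6 control libraries lie between 0.855% and 4.07%, and the 6 depleted libraries between 8.20% and 17.6%.

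Over the 4 comparisons 198 tests of single events were made in 7 members, counting an event once in each comparison. SCEL alone held 120 of these tests, from 42 distinct events. None had inclusion levels at least 20 points apart with an adjusted p-value under 0.05 in edgeR, 8 had an unadjusted p-value under 0.05, and the retained intron of KLF4 in 2 comparisons had an adjusted p-value under 0.05. Under the rule with 20 points 0.0475%, 0.15%, 0.0632% and 0.249% of all events were called upon depletion without and with Cisplatin and upon Cisplatin in control and depleted cells. TRIM29 had 8 tests of 2 events, and no change in its splicing was called.

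The other genes of squamous epithelium were put through the same rule as all genes and are described beside the members. They form 6 lists with 139 genes, of which 88 passed the filter. Depletion in untreated cells raised 21 and lowered 3 of them, 27.3% beside 8.66% of all genes, and their median was 0.27 on the log2 scale against 0.00 for all genes. Depletion in Cisplatin-treated cells raised 18 and lowered 4, 25.0% beside 12.3%, with a median of 0.18 against −0.01. Cisplatin raised 18 and lowered 8 in control cells (29.5% beside 19.8%) and raised 24 and lowered 10 in depleted cells (38.6% beside 23.1%). Some of the genes called, such as S100A14 and S100A9 with few control reads, passed the filter through the depleted libraries in which they were high. SERPINB5, with 0, 13 and 1 reads in untreated control cells, passed it through the other conditions. With at least 10 reads in every library the depletion counts were 12 of 68 genes in either treatment (17.6%), beside 5.996% and 8.38% of all genes under that filter. The lists were drawn up with results of these data known, so that these shares and the adjusted p-values of the genes named below are given as a description.

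Among the 34 genes of the cornified envelope 13 were tested. Depletion of untreated cells raised 6 of these and lowered 0, beside 3.7% of all genes higher and 4.96% lower. S100A14 and S100A9, among these 6, passed the filter through the depleted libraries in which they were high. The counts by list, here and below, were not repeated with at least 10 reads in every library, so that nothing is drawn from them. PI3 (elafin), a protease inhibitor of inflamed and cornifying skin, rose from 0.252 ± 0.179 to 4.85 ± 1.25 CPM (SD, n = 3, log2 fold change 4.23, adjusted p = 1.4e-04). S100A14 rose from 0.242 ± 0.254 to 2.97 ± 0.649 CPM (3.58, adjusted p = 3.6e-04) and the calprotectin subunit S100A9 from 0.231 ± 0.353 to 2.48 ± 0.787 CPM (3.38, adjusted p = 0.0110). The control libraries held 6, 18 and 5 reads of PI3, 4, 21 and 3 of S100A14, and 2, 25 and 0 of S100A9. Without untreated control replicate 2 the log2 fold changes were 5.00, 4.92 and 6.35. The same 3 genes rose with Cisplatin present, by 4.39, 4.34 and 3.69 on the log2 scale, and without Cisplatin-treated control replicate 2 PI3 was at 5.10 and S100A9 at 5.20, while S100A9 was at 3.00 without replicate 3 of that group. TGM1, which crosslinks the envelope and was named for this role outside the rule, had 0.928 CPM in untreated control cells, 2.08 in untreated depleted cells, and 3.66 and 6.15 CPM with Cisplatin, with a log2 change upon Cisplatin of 1.98 in control cells (adjusted p = 7.5e-05) and 1.56 in depleted cells (adjusted p = 2.5e-04).

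Of the barrier proteases, inhibitors and lipid enzymes, depletion of untreated cells raised 4 and lowered 1 of 13 (3.7% and 4.96% of all genes). SERPINB5 (maspin) rose from 0.119 ± 0.184 to 6.40 ± 1.78 CPM (log2 fold change 5.66, adjusted p = 2.0e-05), with 0, 13 and 1 reads in the control libraries. Without control replicate 2, which held 13 of these reads, the log2 fold change was 8.55. The ceramide synthase CERS3 fell by 4.72 without and by 5.35 on the log2 scale with Cisplatin (adjusted p = 0.00135 and 6.8e-04), from 3.74 ± 2.70 to 0.136 ± 0.0459 CPM in untreated cells. Without control replicate 1 of the same treatment these values were −4.01 and −4.75. Upon Cisplatin SERPINB5 rose by 4.47 in control cells (adjusted p = 2.9e-05), and by 7.37 without untreated control replicate 2. The lipid transporter ABCA12 rose by 2.59 in control and 1.73 in depleted cells (adjusted p = 8.5e-06 and 1.7e-04). The lipoxygenase ALOXE3 rose by 2.55 in control and 3.25 in depleted cells (adjusted p = 1.6e-05 and 2.2e-06). The interaction was called for neither (adjusted p = 0.214 and 0.358).

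Of the 8 genes linked to grainyhead-like factors, depletion of untreated cells raised 2 and lowered 0 (3.7% and 4.96% of all genes), and their median log2 fold change was −0.20. EPCAM rose from 10.3 ± 7.02 to 92.3 ± 6.18 CPM (3.16, adjusted p = 1.7e-04) and by 3.17 with Cisplatin (adjusted p = 1.4e-04). Its untreated control libraries held 254, 722 and 210 reads, and without the second of them the depletion log2 fold change was 3.87. Cisplatin raised 0 and lowered 1 of the 8 in control cells (9.16% and 10.6% of all genes). In depleted cells it raised 2 and lowered 2 (11.6% and 11.5%). Whether the level of GRHL3 bore on these genes was not tested. The gene called in control cells was the receptor ERBB3 (−1.44, adjusted p = 0.00193). ERBB3 missed the 2-fold limit at −0.88 without untreated control replicate 2.

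Of the 14 genes of desmosomes and junctions tested, 1 rose and 0 fell upon depletion of untreated cells (3.7% and 4.96% of all genes). Cisplatin had opposite effects on a pair of cadherins. Desmocollin 3 (DSC3) rose from 10.4 ± 2.44 to 67.2 ± 5.44 CPM in control cells (2.69, adjusted p = 3.1e-08) and by 3.00 in depleted cells, whereas E-cadherin (CDH1) fell from 162 ± 31.1 to 52.1 ± 3.77 CPM in control cells (−1.64, adjusted p = 8.6e-06) and by 1.47 in depleted cells.

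The epidermal transcription regulators gave 4 higher and 1 lower of 25 upon depletion of untreated cells (3.7% and 4.96% of all genes). Upon Cisplatin 8 were higher and 2 lower in control cells (9.16% and 10.6% of all genes). The counts in depleted cells were also 8 and 2 (11.6% and 11.5%). SOX2 fell upon depletion by 1.59 and, with Cisplatin, by 1.43 (adjusted p = 0.00387 and 0.00686). PRDM1 (BLIMP1), which is active in terminally differentiating keratinocytes, rose upon Cisplatin by 3.16 in control and 2.37 in depleted cells (adjusted p = 1.6e-06 and 1.1e-05). TP63, the master factor of basal cells, fell from 1.14 ± 0.365 to 0.151 ± 0.112 CPM in control cells (−2.89, adjusted p = 1.3e-04) and from 4.04 ± 0.231 to 0.342 ± 0.0376 CPM in depleted cells (−3.54, adjusted p = 9.0e-06). The AP-1 subunit FOSL1 rose from 18.98 ± 1.55 to 133 ± 5.38 CPM in depleted cells (2.81, adjusted p = 2.5e-05) and by 2.44 in control cells (adjusted p = 8.6e-05), and the interaction was not called (0.37, adjusted p = 0.707).

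A pair of regulators outside the rule for naming were singled out after their values were seen. ZNF750, which was not tested, had 0 reads in the untreated libraries, 2 to 15 in Cisplatin-treated control cells and 1 in each Cisplatin-treated depleted library. OVOL2 was called upon depletion, at 0.713 ± 0.118 CPM in control and 3.99 ± 0.128 CPM in depleted cells without Cisplatin (log2 fold change 2.48, adjusted p = 3.3e-06).

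Among the remaining 15 genes of squamous epithelium tested, depletion raised 4 and lowered 1 in untreated cells (3.7% and 4.96% of all genes). STAU1, the protein partner of TINCR in keratinocytes and named for this role outside the rule, had between 161 ± 9.53 and 200.2 ± 7.56 CPM in the 4 conditions and was not called. Upon Cisplatin in depleted cells STAU1 fell by 0.31 on the log2 scale, short of the 2-fold limit (adjusted p = 0.00146 by the quasi-likelihood test of edgeR). The annexin ANXA8 fell by 1.17 upon depletion (adjusted p = 0.0153, lost in 3 of the 12 fits that left out a library), and LYPD3 rose by 3.01 upon depletion with Cisplatin (adjusted p = 1.6e-04). The sulfotransferase SULT2B1 fell upon Cisplatin by 1.83 in control and 3.08 in depleted cells (adjusted p = 0.00435 and 1.6e-04). The value in control cells was −1.22 without untreated and −2.56 without Cisplatin-treated control replicate 2. Upon depletion with Cisplatin SULT2B1 fell by 1.57 (adjusted p = 0.0186) and was not called without Cisplatin-treated control replicate 2 (−0.88, adjusted p = 0.0853). PADI3 also fell there by 1.28 (adjusted p = 7.9e-04). RHCG rose upon Cisplatin in control cells by 3.01 (adjusted p = 0.00244), but its treated libraries spread from 203 to 1768 reads. Without Cisplatin-treated control replicate 2 its log2 fold change was 1.47, and without untreated control replicate 2 it was 3.62. In depleted cells RHCG rose by 2.02 (adjusted p = 0.0140).

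**Figure D5:**
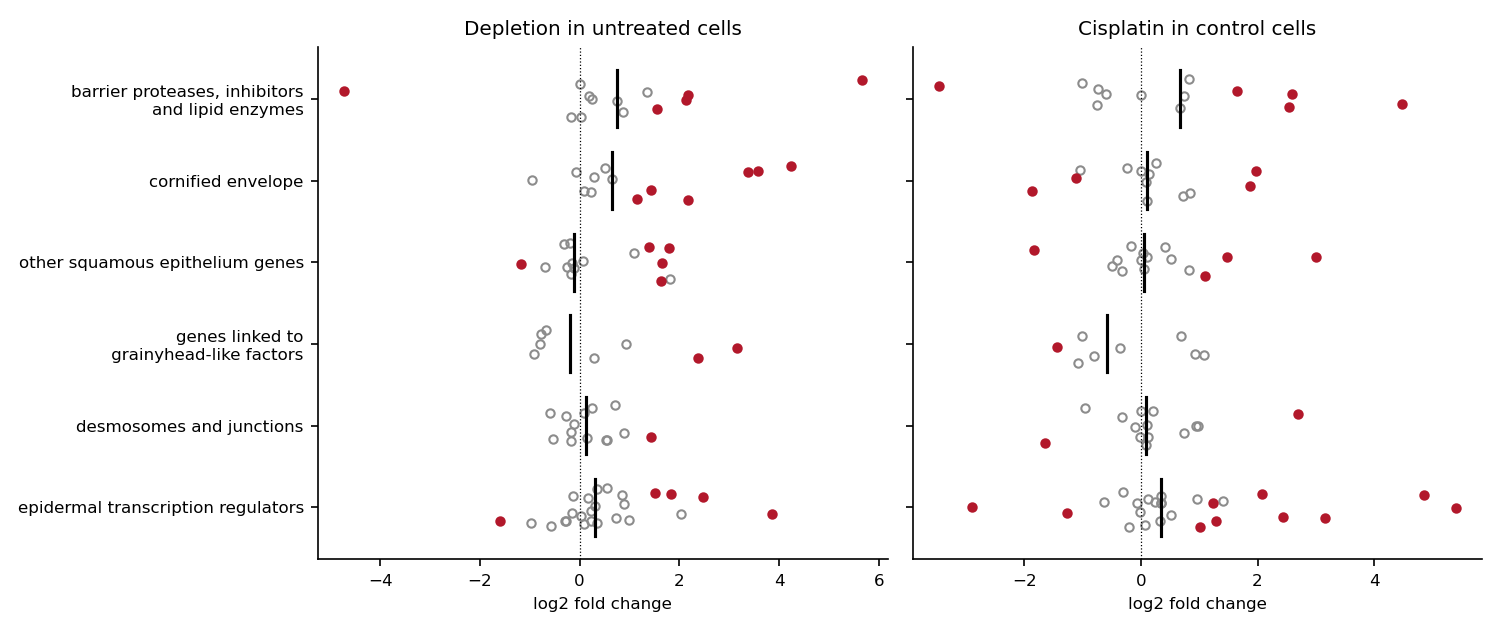
Log2 fold change (x axis) of the 88 other genes of squamous epithelium tested, by list, upon depletion in untreated cells (left) and upon Cisplatin in control cells (right). Filled points were at least 2-fold apart with an adjusted p-value under 0.05, open points were not, and black bars mark the median of each list, which lies between −0.20 and 0.74 for depletion.

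A difference in Cisplatin response between control and depleted cells was called for 3 genes of these lists. The interaction called 1 of the 88 genes higher and 2 lower (3.41% beside 1.28% of all genes), SBSN with 3.40, SERPINB5 with −2.72 and GJB2 with −1.65 on the log2 scale. The gap junction gene GJB2 had 3.97 ± 0.406 and 4.12 ± 0.0349 CPM in control cells without and with Cisplatin, and 12.6 ± 1.33 and 4.15 ± 0.730 CPM in depleted cells, so that it fell by 1.59 upon Cisplatin in depleted cells (adjusted p = 2.3e-06). SBSN (suprabasin) had 0.650 CPM in control cells without and with Cisplatin, and 0.335 ± 0.0576 and 3.55 ± 1.01 CPM in depleted cells, a rise of 3.40 upon Cisplatin (adjusted p = 1.2e-06).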

How the data were processed

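Stranded mRNA libraries of A549 cells were sequenced in paired ends by the authors, who removed ribosomal, transfer and mitochondrial reads, trimmed the rest and aligned them to hg19 with STAR 2.5.2b. The deposited counts are raw read pairs per gene and library from STAR, of which those on the strand of the gene were used here. The authors also deposited HTSeq counts of exonic reads and of reads over whole genes, whose difference gave the intronic reads, and rMATS tables with counts of inclusion and skipping reads per library. The p-values, FDR and inclusion differences in the rMATS tables are the authors' own comparisons and were not used. The order of libraries within the rMATS tables is not named, so these are taken as libraries a, b and c.

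Counts were tested with edgeR 4.0.16 in R 4.3.3 (TMM scaling, filterByExpr, quasi-likelihood test, Benjamini-Hochberg adjustment over all genes), in a model with shRNA, Cisplatin and their interaction over all 12 libraries. Calls needed an adjusted p under 0.05 and a fold of at least 2. Intronic against exonic and inclusion against skipping reads were tested with a term for each library, at an adjusted p under 0.05 and, for events, inclusion levels at least 20 points apart. Positions and exonic lengths came from GENCODE v44 lifted to GRCh37, promoters from RefSeq. Counting error alone leaves a wide margin for genes with fewer than 10 reads.

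The members and lists were chosen with earlier results of these data known. Named from the lists were, in each comparison, the 5 largest rises and falls among those called that averaged 1 CPM or more, and for TRIM29 and GRHL3 the 5 most correlated genes with at least 10 CPM. Genes named outside this rule are marked as such in the text. Equally numbered untreated and Cisplatin-treated control libraries deviated together (correlations of 0.48, 0.67 and 0.38 over 15352 genes), so that these count as pairs on the strength of these values, unlike the other comparisons (−0.084 to 0.17). The main tests left this pairing out, and a replicate block was run as an alternative. On simulated counts for depletion in untreated cells (15086 genes), 90 of 100 genes changed 2-fold had an adjusted p under 0.05. Of those changed 4-fold 100 of 100 did. For the ratio (11488 genes) 0 of 100 changed 2-fold and 60 of 100 changed 4-fold were found, and for 4000 events 86 of 100 with 4-fold odds. The spread in these simulations was set by hand and not estimated from the libraries. The shares found therefore do not measure what the tests could find here. In the libraries themselves the ratio was called higher in 28.2% of all genes in that comparison, at a median log2 change of 0.47. Labels call the replicates biological without naming separate cultures. Figures were drawn with matplotlib 3.10.9.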

Additional observations from a re-analysis of the deposited data

Results flagged for a closer look

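In 3 genes of the squamous lists the Cisplatin effect differed between control and depleted cells by the test of the interaction itself (edgeR's quasi-likelihood test over 15352 genes). The suprabasal gene SBSN had an interaction of 3.40 on the log2 scale (standard error 0.41, adjusted p = 0.00470), with 11 to 13 reads in untreated depleted libraries and 78 to 121 with Cisplatin, while control libraries held 19 to 33 and 24 to 30. GJB2 had an interaction of −1.65 (standard error 0.21, adjusted p = 0.00636) and its levels in the 4 conditions are given above. SERPINB5 had an interaction of −2.72 (standard error 0.70, adjusted p = 0.049998), next to the threshold, with 0, 13 and 1 reads in untreated control libraries. Its interaction was −5.62 (adjusted p = 0.00417) without untreated control replicate 2, and its call was lost in 10 of the 12 fits that left out a library.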

How the results depend on the processing

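The results were computed again with counts of both strands, with library size or median-ratio factors instead of TMM, no filter or at least 10 reads in every library, DESeq2 1.42.0, a replicate block, other limits for introns and events, and the omission of each library. With at least 10 reads in every library 12 genes of the lists were called upon depletion without and 12 with Cisplatin. For the interaction DESeq2 called 5. Without untreated control replicate 2 it was 8 and without Cisplatin-treated control replicate 2 it was 5, in fits that tested 89 to 92 genes of the lists. Leaving out each library gave 19 to 29 and 21 to 28 calls for depletion, 27 to 36 and 31 to 39 for Cisplatin, 2 to 8 for the interaction, and 17 to 19 member folds of at least 2 (18 of 40 with all libraries). The replicate block gave 27, 24, 28, 36 and 3 calls in the lists and changed no other count by over 1.5 times.

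Of 28 member ratios 12 were called, 5 with at least 10 intronic and exonic reads, 13 with the replicate block, 9 to 14 without a library, and 5 with intronic and exonic reads scaled separately, an alternative chosen after seeing the data. Of these 5, 2 were among the 12 and 3 were called lower under this scaling alone. Under that scaling EVPL (−0.21) and TRIM29 (−0.39) reversed for depletion with Cisplatin and SCEL (−0.21) and TRIM29 (−0.29) for Cisplatin in depleted cells, since it removes the shift shared by all genes. With the block the ratio of PPL upon Cisplatin in control cells was called (0.97, adjusted p = 0.0403). The splicing calls stayed at 0 under every alternative run, including a limit of 10 points. The Cisplatin effect on the KLF4 intron in control cells, 0.03 and not called, was −0.50, −0.22 and −0.0634 without single libraries. No paired analysis was possible for splicing because its libraries carry no replicate number, and the authors' FDR was not run as an alternative because it is their own comparison. Depth limits genes and events with few control reads, among them IVL, GRHL2, S100A9 and the KLF4 intron.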
